A study of Mus musculus with 21 samples.

Results

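Forebrain gene expression of 4 PS/E4H mice was compared with that of 4 PS/E2H mice, which are 8 of the 21 mice sequenced, to ask which transcripts differ with the APOE isoform once tau disease has run to paralysis. Mice were assigned by their group labels, and the comparison was chosen with earlier results of these data known. All 20202 genes that passed a low-count filter, of 55401 in the count table, entered it. Both groups were PS19 mice, heterozygous for a transgene that expresses human tau with the P301S mutation from the mouse prion promoter, and both were homozygous for a human APOE allele in place of mouse Apoe: APOE2 in PS/E2H and APOE4 in PS/E4H. They were killed when the hindlimbs were paralyzed, so the mice share a disease stage and not an age, and the labels give no age at death for single mice. PS19 mice were kept on a mixed B6/C3H background and the APOE targeted replacement lines on C57BL6, and each APOE allele came from its own line. A difference between the human alleles and a difference in other DNA that travelled with a line therefore cannot be told apart. Results are set beside 2 other sets of mice: the 4 PS/E3H mice, which carry APOE3 and the same tau transgene, and the parental mice without tau, 3 E4H and 3 E2H aged 9 to 10 months, which share no animal with the tau mice.

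APOE is the main lipid carrier of the brain. It is made by astrocytes and by activated microglia and is taken up through receptors of the LDL receptor family. The human APOE4 allele raises the risk of Alzheimer's disease and APOE2 lowers it. In a brain with tau aggregates, microglia and astrocytes move to activated states with known marker genes, among them complement components, cathepsins, the receptor Trem2 and the astrocyte filament Gfap.

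The total count of the 8 mice was 59265459 to 70384215, with 7.25% to 9.25% of counts from mitochondrial genes, and the 12 within-group pairs all differed by more than sampling noise (30.7 to 79.6 in chi-square per gene). Levels are given in CPM, counts scaled to a common library size, which compare mice and not genes of different length. The counted gene is mouse Apoe, so the human allele could not be checked. Reads assigned to it were at 14.7 ± 1.86 CPM (SD, n = 4) in PS/E2H and 14.6 ± 2.06 CPM in PS/E4H mice. Mapt, the gene of mouse tau, differed by -0.06 on the log2 scale (standard error, SE, 0.0686) and Prnp, whose promoter drives the transgene, by -0.07 (SE 0.0859), both with adjusted p = 0.766. Markers of forebrain regions were present in every tau mouse of the comparison, with summed levels of 818 to 1308 CPM over 14 striatal and dopamine genes and 293 to 429 CPM over 12 hippocampal genes. The labels give no sex. The Y-linked gene Ddx3y was at 43 to 65.3 CPM in 1 of 4 PS/E2H mice (replicate 2) and 2 of 4 PS/E4H mice (replicates 1 and 4) and at 57.1 CPM in E4H replicate 3. In all other tau and parental mice of these groups it was at 0 to 0.341 CPM, which are 0 to 21 counts. The 3 tau mice with high Ddx3y had Xist at 2.61 to 2.89 CPM, against 205 CPM or more in the others. The study's methods describe the mice as male except for a few females. In each group the number of libraries with high Ddx3y equals the number of females given there, so the libraries match that description with the sexes exchanged, and in PS/E4H, with 2 of each, either way. Results that touch on it are given below also for the 5 tau mice with Ddx3y under 1 CPM, called mice with low Y-linked counts. Among the parental mice E2H replicate 2 stood apart, with 10.9% of counts from mitochondrial genes against 8.25% to 9.10% in the others and with the fewest genes detected (24438 against 26310 or more). Parental results that change without it are given both ways.

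A gene was called where the adjusted p was under 0.05 and its level differed at least 2-fold. By that rule 22 genes, 0.109% of those tested, differed between the PS/E4H and the PS/E2H group. Of these, 14 (0.0693%) were higher and 8 (0.0396%) lower in PS/E4H. Without the fold limit there were 24 (0.119%), the further 2 being Zfp14 and Hjurp. Some called genes lie in groups on a chromosome and others lie alone. A block on chromosome 4 around the chemokine gene Ccl21b holds 8 of the 14 higher genes, 5 called genes lie within 15 Mb of Apoe on chromosome 7, a pair is adjacent on chromosome 14 and another pair at the end of chromosome X. No complement, cathepsin, MHC, astrocyte, myelin or synaptic gene of the lists described below was called.

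**Figure D1:**
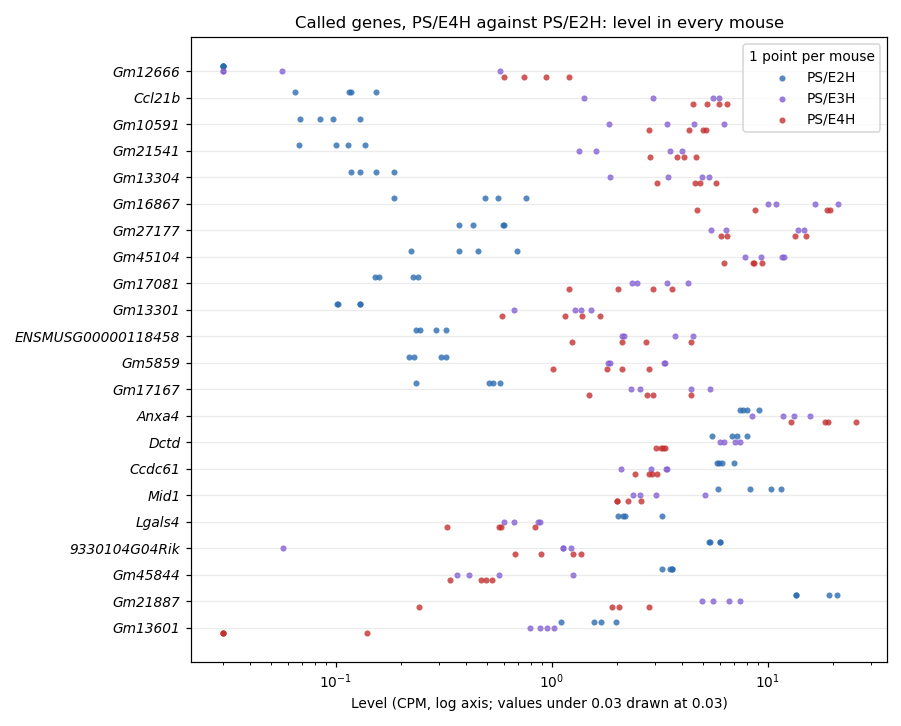
Level of each of the 22 called genes in every tau mouse, in CPM on a log axis, with 1 point per mouse and values under 0.03 CPM drawn at 0.03. The PS/E4H points lie apart from the PS/E2H points in all 22 rows, and the PS/E3H points lie on the PS/E4H side in most.

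The largest group of called genes was the CCL21 cluster. CCL21 is a chemokine that binds the receptor CCR7 and guides dendritic and T cells into lymphoid tissue, and C57BL mice carry several near-identical copies of its gene on chromosome 4. Ccl21b (ENSMUSG00000095675, chr4:42255767-42256432, GRCm38, plus strand) was at 0.115, 0.154, 0.065 and 0.118 CPM in the 4 PS/E2H mice and at 5.95, 6.47, 5.21 and 4.53 CPM in the 4 PS/E4H mice. The lowest PS/E4H mouse was thus far above the highest PS/E2H mouse, where the gene had 4 to 9 counts. The log2 fold change was 5.59 (SE 0.275, adjusted p = 6.54e-06, from the quasi-likelihood F test of edgeR as for all adjusted p given without another tool). Gm21541, which RefSeq names Ccl21d, rose by 5.18, Gm10591 by 5.47 and Gm13304 by 4.93 on the same scale, each with adjusted p = 1.05e-05. PS/E3H mice ranged from 1.42 to 5.94 CPM for Ccl21b, between the other groups or within the PS/E4H range.

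The 4 chemokine copies cannot be read as 4 separate measurements. In GENCODE M21 their coding sequences, 402 bases long, are identical to the base. Of the 50-base windows of their transcripts 97.1% to 100% also occur in another gene, so how reads were divided among them was decided by the authors' counting. The copy that differs is Ccl21a (chr4:42772860-42773993, minus strand), which has A84T and T194C relative to Ccl21b, counted from 1 at the A of the start codon. Bases 61 to 240 of the coding sequence are printed to show how little separates a called copy from one that was not called, with the differing bases in capitals.
Ccl21b: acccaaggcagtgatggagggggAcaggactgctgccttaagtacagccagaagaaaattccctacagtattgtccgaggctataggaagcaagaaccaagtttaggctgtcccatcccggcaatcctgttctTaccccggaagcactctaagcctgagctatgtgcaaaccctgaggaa
Ccl21a: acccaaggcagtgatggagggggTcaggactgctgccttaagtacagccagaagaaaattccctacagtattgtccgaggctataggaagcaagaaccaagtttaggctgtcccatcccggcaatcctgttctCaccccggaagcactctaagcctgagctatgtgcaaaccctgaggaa

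Ccl21a is named here after its values were seen. It was at 0.0426, 0.239, 0 and 0.0337 CPM in PS/E2H and at 0.249 to 1.02 CPM in the 4 PS/E4H mice, so that the lowest PS/E4H mouse lay just above the highest PS/E2H mouse. Its log2 fold change was 2.995 with an SE of 0.864, and it was not called (adjusted p = 0.298). In Ccl21a, 71.6% of 50-base windows are shared with other genes. How many of its counts came from the other copies was not tested.

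The bases just upstream were compared as well, since the copies differed together between the groups. RefSeq windows of GRCm38.p6, from 250 bases before to 50 after the start of transcription, were identical for Gm13304 and Gm10591. Ccl21d differed from both at 1 base and from Ccl21a at 2 of 299 aligned bases. The window of Ccl21b is not of this kind: it aligned with each of the others over 16 bases only, 14 of them matching. The windows of the called copy Ccl21d (chr4:41903363-41903661, plus strand) and of Ccl21a (chr4:42773942-42774240, minus strand) are printed, with the differing bases in capitals.
Ccl21d: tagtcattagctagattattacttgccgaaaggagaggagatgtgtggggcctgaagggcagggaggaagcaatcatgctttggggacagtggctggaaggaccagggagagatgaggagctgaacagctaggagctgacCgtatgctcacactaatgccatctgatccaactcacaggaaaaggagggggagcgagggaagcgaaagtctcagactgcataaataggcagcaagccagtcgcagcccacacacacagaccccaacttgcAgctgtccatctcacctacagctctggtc
Ccl21a: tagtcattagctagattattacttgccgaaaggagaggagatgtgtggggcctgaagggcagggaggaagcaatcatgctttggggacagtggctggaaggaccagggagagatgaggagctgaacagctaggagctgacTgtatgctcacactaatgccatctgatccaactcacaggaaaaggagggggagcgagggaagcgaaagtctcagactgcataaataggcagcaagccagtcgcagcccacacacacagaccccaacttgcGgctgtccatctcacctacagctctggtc

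The remaining called genes of the block are pseudogenes or genes without a known product. Gm17081 rose by 3.64, Gm13301 by 3.34, Gm5859 by 2.83 and Gm17167 by 2.63 on the log2 scale. Between 67.1% and 91.1% of their windows are shared with other genes. The block runs from 41903610 to 42612860, holds 25 tested genes, and all 8 that were called were higher in PS/E4H. Ccr7, the receptor, was tested and not called (log2 fold change -0.32). Of the 8 tested genes on a list of CCL21 copies and the CCR7 axis, 4 passed the adjusted test. An unadjusted p under 0.05 was found for 5, all CCL21 copies and all higher in PS/E4H, whichever mouse was left out. The list was written with earlier results of these data known. Its copies share sequence, so these counts are not separate measurements and lend no support. The members Ccl19 and Ackr4 had log2 fold changes of -0.06 and -0.04.

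Apart from the cluster, Gm12666 (chr4:92190744-92191749) was not detected in any PS/E2H mouse and had 37 to 74 counts in PS/E4H mice. Relative to a floor of 3 counts per library it was at least 18.1-fold higher (adjusted p = 0.00696). Among PS/E3H mice it was at 0.573 CPM in 1, at 0.0562 CPM in another and at 0 in the other two. Of its windows 52.5% occur in another gene, most often Larp7, the gene of an RNA-binding protein of the 7SK complex. On chromosome 14, Gm16867 (chr14:69363504-69503362) was at 0.187 to 0.763 CPM in PS/E2H and 4.71 to 19.4 CPM in PS/E4H mice, a log2 fold change of 4.69 (SE 0.516, adjusted p = 0.00273). Its neighbour Gm27177, annotated as antisense, rose by 4.35 (SE 0.351, adjusted p = 0.000194). Their windows are shared to 98.2% and 100%, and whether the counting used strand is not given in the sources used here. ENSMUSG00000118458, which has no entry in GENCODE M21, rose by 3.25 (SE 0.392, adjusted p = 0.00633).

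Genes near Apoe were called in both directions. Gm45104 (chr7:18396516-18400865), a predicted transcript 1.30 Mb before the start of Apoe, was at 0.691, 0.222, 0.373 and 0.455 CPM in PS/E2H and 9.39, 6.28, 8.55 and 8.63 CPM in PS/E4H mice. The groups were far apart, with a log2 fold change of 4.22 (SE 0.301, adjusted p = 7.41e-05). Ccdc61 (chr7:18890883-18910415), which encodes a centriole-associated protein, lies 0.786 Mb before Apoe and fell from 6.22 ± 0.52 CPM (SD, n = 4) in PS/E2H to 2.80 ± 0.273 CPM in PS/E4H mice (log2 fold change -1.15, SE 0.148, adjusted p = 0.0085). The long noncoding RNA 9330104G04Rik (chr7:16871347-16874886) fell by 2.44 (SE 0.23, adjusted p = 0.000881) and Gm45844 (chr7:7213017-7278289) fell by 2.93 (SE 0.22, adjusted p = 0.00011) on the log2 scale. Gm45844 was at 3.23 to 3.61 CPM in every PS/E2H mouse and at 0.339 to 0.529 CPM in every PS/E4H mouse.

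On the other side of Apoe, Lgals4 (chr7:28833854-28841708), which encodes the sugar-binding protein galectin 4, was at 2.03, 2.19, 2.14 and 3.25 CPM in PS/E2H and at 0.582, 0.84, 0.569 and 0.327 CPM in PS/E4H mice. No PS/E4H mouse reached the PS/E2H range (log2 fold change -2.05, SE 0.313, adjusted p = 0.0327). Zfp14 (chr7:30036359-30051380), a zinc finger gene 10.3 Mb after Apoe, passed the adjusted test with less than a doubling. It was at 10.1 to 10.8 CPM in PS/E2H and 17.3 to 21.4 CPM in PS/E4H mice (log2 fold change 0.91, SE 0.1, adjusted p = 0.00273). Over the whole chromosome, 5 of 433 tested genes within 15 Mb of Apoe were called and 92 (21.2%) had an unadjusted p under 0.05, against 0 called and 141 (12.4%) among the 1139 tested genes farther away. Across all chromosomes 12.3% of tested genes had an unadjusted p under 0.05. Among the 59 tested genes within 1 Mb of Apoe, 15 (25.4%) did. Of the apolipoprotein genes beside Apoe on the APOE list, Apoc1 had a log2 fold change of 0.01. Apoc4 was at 0.0576 to 0.179 CPM in PS/E2H and 0.187 to 1.41 CPM in PS/E4H mice and was not called (log2 fold change 2.45, SE 0.722, adjusted p = 0.298).

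**Figure D2:**
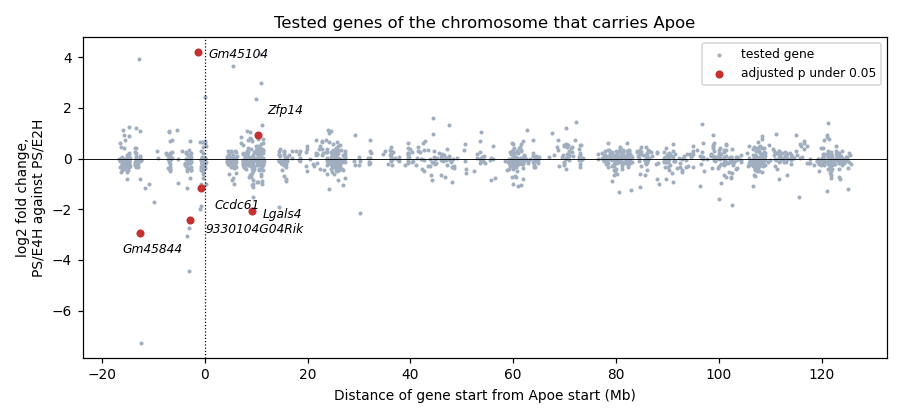
Log2 fold change of PS/E4H against PS/E2H for every tested gene of chromosome 7, by distance of the gene start from the start of Apoe in Mb. The 6 named genes with an adjusted p under 0.05 lie within 15 Mb of Apoe, and none lies beyond.

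Elsewhere, Anxa4 (chr6:86736840-86793584), which encodes the calcium-dependent membrane-binding protein annexin A4, was at 7.69, 8.03, 9.14 and 7.43 CPM in PS/E2H and at 25.5, 18.4, 12.8 and 19.1 CPM in PS/E4H mice. It is the only called gene above 5 CPM in both groups that rose (log2 fold change 1.23, SE 0.18, adjusted p = 0.0254), and it was called again in 3 of 8 fits without 1 mouse. Dctd (chr8:48099092-48153233), the deaminase that supplies deoxyuridine monophosphate for thymidine synthesis, fell from 6.89 ± 1.06 CPM to 3.22 ± 0.131 CPM (log2 fold change -1.10, SE 0.153, adjusted p = 0.0168) and was called again in 2 of these 8 fits. Gm13601 (chr2:67491044-67516525) had 77 to 122 counts in PS/E2H mice and 0, 0, 0 and 9 counts in PS/E4H mice (adjusted p = 0.0403), and was called in 1 of 8. Hjurp, a chaperone that loads the centromeric histone CENP-A, fell by 0.72 on the log2 scale (SE 0.0909, adjusted p = 0.00825), from 63.2 to 75.7 CPM in PS/E2H to 38 to 47.6 CPM in PS/E4H mice.

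On chromosome X, Mid1 (chrX:169685199-170005736), a ubiquitin ligase gene that spans the edge of the pseudoautosomal region, was at 10.4, 5.86, 8.28 and 11.5 CPM in PS/E2H and 2.6, 2.01, 2 and 2.25 CPM in PS/E4H mice. The groups did not overlap, and the PS/E2H mouse with high Y-linked counts was the lowest of its group. Mid1 fell by 2.02 on the log2 scale (SE 0.214, adjusted p = 0.00253), and with the Xist level as a covariate by 1.96 (adjusted p = 0.013). Gm21887 (chrX:170009659-170019281) fell by 3.25 (SE 0.485, adjusted p = 0.0279) and was no longer called with that covariate (adjusted p = 0.0539).

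Among the called genes, 14 were called again whichever mouse was left out: Ccl21b, Gm21541, Gm10591, Gm13304, Gm45104, Gm45844, Gm27177, 9330104G04Rik, Mid1, Gm17081, Gm16867, ENSMUSG00000118458, Gm12666 and Gm13301. The others were Ccdc61 and Gm5859 in 7 fits, Anxa4 in 3, Dctd, Gm17167 and Gm21887 in 2, and Lgals4 and Gm13601 in 1. With the Xist level as a covariate 18 genes were called, 16 of them among the 22. In the 5 mice with low Y-linked counts 19 were called, 11 of them among the 22.

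The parental mice without tau gave the same contrast in other animals. Between 3 E4H and 3 E2H mice, 39 of 20804 tested genes (0.187%) were called, 26 (0.125%) with a higher and 13 (0.0625%) with a lower level in E4H. Of the 22 genes called in tau mice, 18 were also called there in the same direction, which is 81.8% of the tau list and 46.2% of the parental list, and without E2H replicate 2 the number shared was again 18. The 18 include all 8 called genes of the chromosome 4 block and the pair on chromosome 14. Much of the sequence of these genes is shared, so the 18 are not separate measurements. Of the 22 genes, 21 could be tested in parental mice, and these 21 had the same sign in both. The CCL21 copies were close in size, with a log2 fold change of Ccl21b of 5.55 in parental and 5.59 in tau mice. The 4 genes called in tau mice alone were Anxa4, Lgals4, Ccdc61 and Gm12666. Ccdc61 had a log2 fold change of -1.09 in parental mice (adjusted p = 0.102), Lgals4 of -1.07 (adjusted p = 0.363) and Anxa4 of 0.75 (adjusted p = 0.189), while Gm12666 did not pass the filter there.

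**Figure D3:**
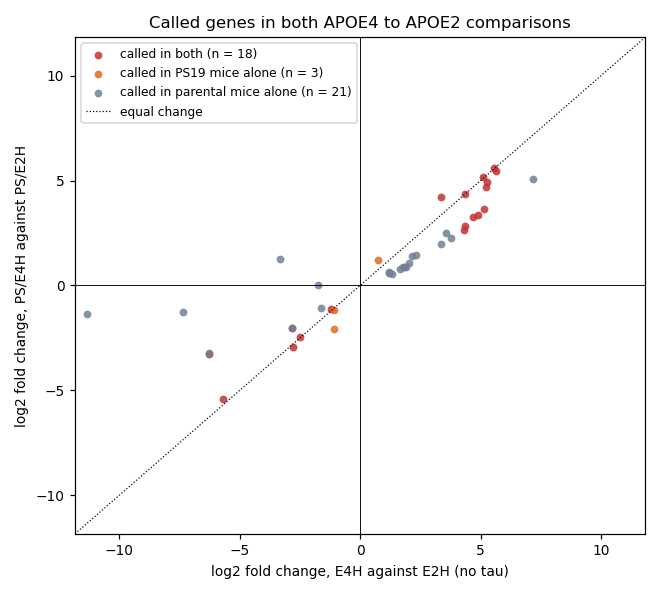
Log2 fold change of PS/E4H against PS/E2H mice (vertical axis) and of E4H against E2H mice (horizontal axis) for each gene called in either comparison and tested in both, with a dotted line of equal change. The 18 genes called in both lie in the upper right and lower left, and values of genes near 0 counts depend on the fit.

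The APOE4 to APOE2 difference was also compared directly between tau and parental mice. Besides the transgene, these sets differ in breeding, in the rule for age at death and in the share of mice with high Ddx3y. An effect of tau cannot be told apart from these. This interaction test called 0 of 22031 genes (0%) by edgeR, with a smallest adjusted p of 0.182. DESeq2 called 118, and by edgeR 2223 genes (10.1%) had an unadjusted p under 0.05. Of the 22 called genes 8 were among the latter. Those in the chromosome 4 block were Gm17081, Gm13301, Gm5859 and Gm17167, with interactions of -1.48, -1.56, -1.5 and -1.68 on the log2 scale and thus smaller differences in tau mice. The 4 chemokine copies had interactions between -0.32 and 0.08. Gm21887 had a log2 fold change of -6.28 in parental and -3.25 in tau mice. Hjurp, at 69.5 ± 18.9 CPM in E2H and 74.4 ± 4.85 CPM in E4H mice, had a log2 fold change of 0.11 in parental and -0.72 in tau mice. Its unadjusted interaction p was 0.0012. Without E2H replicate 2 the log2 fold change in parental mice was -0.11 and the unadjusted interaction p 0.000438.

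Most called genes of PS/E3H mice were at levels nearer those of PS/E4H mice. For 17 of the 22 called genes the PS/E3H mean was nearer the PS/E4H mean, including all called genes of the chromosome 4 block and all 5 called genes of chromosome 7. Genes of the block share sequence, so the 17 are not separate measurements. The PS/E3H mean was nearer PS/E2H for 5: Anxa4, Dctd, Gm12666, Gm13601 and Gm21887. Dctd, for example, was at 6.01 to 7.44 CPM in PS/E3H, inside the PS/E2H range of 5.49 to 8.04 CPM, and Gm13601 at 0.797 to 1.02 CPM, just below the PS/E2H range of 1.11 to 1.98 CPM.

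Serpina3n, a secreted protease inhibitor and a marker of reactive astrocytes and stressed oligodendrocytes, narrowly missed the threshold. It was at 118, 105, 190 and 186 CPM in PS/E2H and at 554, 417, 426 and 262 CPM in PS/E4H mice. Every PS/E4H mouse was above every PS/E2H mouse, with a log2 fold change of 1.47 (SE 0.237, adjusted p = 0.0504). PS/E3H mice spread over 72.4, 171, 197 and 300 CPM, from below the PS/E2H range into the PS/E4H range. In parental mice it was at 31.2 ± 2.61 CPM (SD, n = 3) in E2H and 155 ± 15.7 CPM in E4H, a log2 fold change of 2.32 that passed the test (adjusted p = 5.86e-05). The interaction was -0.85 on the log2 scale (unadjusted p = 0.017), a smaller APOE4 to APOE2 difference in tau mice. DESeq2 called it in tau mice with an adjusted p of 0.000481.

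The cell type and pathway lists showed smaller differences. Outside the CCL21 list no member of the 37 lists had an adjusted p under 0.05. They are described by the number of members with an unadjusted p under 0.05, which 5.94% of all tested genes reached with a higher and 6.39% with a lower level in PS/E4H mice, and by the median log2 fold change, which was -0.0003 over all genes. These shares moved with the mice in the fit. As single mice were left out they were 4.07% to 5.69% higher and 4.32% to 6.33% lower, except without PS/E2H replicate 3, where they were 9.30% and 9.72%, and in the 5 mice with low Y-linked counts they were 2.34% and 3.48%. A list's count in such a fit is to be read against the share of that fit. In RNA of whole forebrain, fewer cells of a type and less RNA per cell cannot be told apart. Members of a list are measured in the same mice and are not independent of one another.

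Plaque-induced genes, a module of microglial and astrocytic genes known from mice with amyloid plaques, had the highest count among the lists of glial activation. Of 54 tested members 29 had an unadjusted p under 0.05 with a higher level in PS/E4H and 0 with a lower one, the median log2 fold change was 0.30, and in 13 members every PS/E4H mouse was above every PS/E2H mouse (3.47% of all tested genes were so). The summed level of the list was 10836 to 12753 CPM in PS/E2H and 13553 to 16369 CPM in PS/E4H mice, which did not overlap, and 9353 to 14531 CPM in PS/E3H mice, which overlapped both. Leaving out PS/E4H replicate 1 lowered the 29 to 18, with a median of 0.20, and leaving out any other mouse gave 21 to 34. In the 5 mice with low Y-linked counts 12 members were higher and 1 lower, with a median of 0.22, where 2.34% and 3.48% of all genes were so. In parental mice the list lay on the other side of 0, with a median of -0.20 and 1 member higher and 17 lower at that p in E4H, as were 5.38% and 6.97% of all genes tested there, and without E2H replicate 2 the median was -0.09 with 2 higher and 15 lower. Of its 54 members 36 had an unadjusted interaction p under 0.05, 35 of them with the interaction above 0, against 10.1% of all genes. Without E2H replicate 2 there were 23, against 8.06%.

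Ctss, the cathepsin of microglia that trims antigens for MHC class II, had the smallest p of the list after Serpina3n. It was at 220, 215, 227 and 199 CPM in PS/E2H and 345, 259, 304 and 320 CPM in PS/E4H mice, with no overlap (log2 fold change 0.51, SE 0.0882, adjusted p = 0.0699). In parental mice the order was opposite, with 102 ± 20.4 CPM (SD, n = 3) in E2H and 76.7 ± 5.23 CPM in E4H. Its interaction was 0.92 on the log2 scale, with an unadjusted p of 4.15e-05, and 0.75 without E2H replicate 2 (unadjusted p = 4.63e-05).

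Complement genes, which tag synapses and debris for microglia, gave 5 of 21 tested members with a higher level, 1 with a lower level and a median of 0.01. The members at a higher level included the subunits of the initiating complex, C1qa, C1qb and C1qc, and the C3a receptor C3ar1. C1qa was at 143 to 159 CPM in PS/E2H and 182 to 228 CPM in PS/E4H mice, without overlap, a log2 fold change of 0.38 (SE 0.0843, adjusted p = 0.201). C3ar1 had a log2 fold change of 0.73 (SE 0.147, adjusted p = 0.158). The member at a lower level was Cfb, a factor of the alternative pathway, with a log2 fold change of -0.50. The count of 5 became 3 without PS/E2H replicate 1 or 4 or PS/E4H replicate 1, and 9 without PS/E2H replicate 3. In the 5 mice with low Y-linked counts 2 were higher and 1 lower, with a median of -0.08.

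Disease-associated microglia genes had 12 of 28 tested members with a higher level, 0 lower and a median of 0.34. Trem2, the lipid-sensing receptor of these cells, was at 34.1, 38.1, 36.6 and 24 CPM in PS/E2H and at 55.2, 44.6, 39.5 and 49.7 CPM in PS/E4H mice, a gap of little more than 1 CPM between the nearest mice (log2 fold change 0.51, SE 0.146, adjusted p = 0.298). The tetraspanin Cd9 differed by 0.64, the lysosomal glycoprotein Cd68 by 0.64 and the galectin Lgals3 by 0.99 on the log2 scale. The count of 12 became 5 without PS/E4H replicate 1, where 4.14% of all genes were higher and the list median was 0.18. It was 6 or 7 without PS/E2H replicate 1, 2 or 4, and 18 without PS/E2H replicate 3, where 9.30% of all genes were higher. In the 5 mice with low Y-linked counts it was 0, with a median of 0.22 and 2.34% of all genes higher.

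Homeostatic microglia genes, which such activation is known to lower, had 3 of 17 members with a higher level (1 to 8 as single mice were left out) and 0 with a lower one, and a median of 0.28. In the 5 mice with low Y-linked counts 1 was higher and 0 lower, with a median of 0.17. Their member Olfml3 differed by 0.68 on the log2 scale. Genes of both lists thus leaned to the same side, and their summed levels overlapped between the groups, at 5821 to 6394 and 6337 to 7776 CPM for the disease-associated list and 1680 to 2013 and 1892 to 2122 CPM for the homeostatic list in PS/E2H and PS/E4H mice.

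MHC class II genes, which present antigens to CD4+ T cells, had a median of 0.60, with 5 of 10 tested members at a higher level and 0 lower. Cd74, the invariant chain that escorts class II molecules, was at 18.2, 31.5, 28.2 and 20.8 CPM in PS/E2H and 52.3, 53.1, 72.1 and 33.3 CPM in PS/E4H mice (log2 fold change 1.10, SE 0.225, adjusted p = 0.158). The groups did not overlap, and PS/E4H replicate 4 came nearest. H2-Aa and H2-Ab1, the chains of the I-A molecule, differed by 0.95 and 0.93, and the loading factor H2-DMb1 by 0.51. The count was 5 or 6 whichever mouse was left out and 5 in the mice with low Y-linked counts, where the median was 0.69. In parental mice the median was -0.21, and 7 of 10 members had an unadjusted interaction p under 0.05. Without E2H replicate 2 these were -0.07 and 4. MHC class I and peptide loading genes did not share this, with 1 of 19 members higher, 1 lower and a median of 0.003. Interferon response genes had 0 of 41 higher and 1 lower, Isg15, a ubiquitin-like modifier (log2 fold change -0.61, adjusted p = 0.352), and a median of -0.04. Without PS/E4H replicate 4 there were 6 at a lower level. In the mice with low Y-linked counts that list had 15 members at a lower level and a median of -0.46, with 3.48% of all genes lower.

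**Figure D4:**
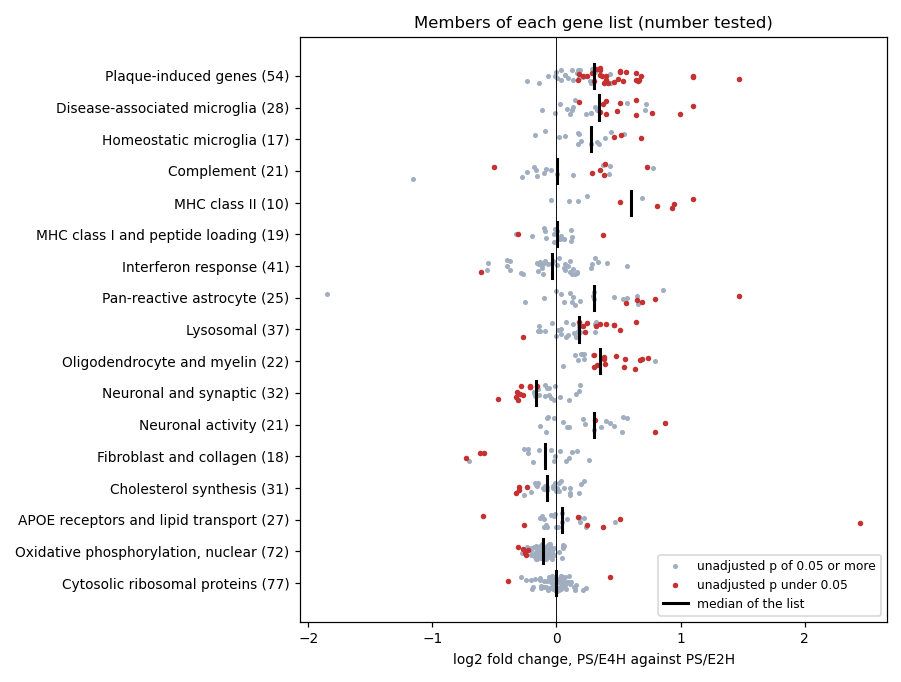
Log2 fold change of PS/E4H against PS/E2H mice for the members of 17 gene lists, with 1 point per tested gene, red where the unadjusted p is under 0.05, and a black bar at the median of the list. Plaque-induced, MHC class II and myelin genes lie mostly to the right of 0 (medians 0.30, 0.60 and 0.35) and neuronal genes mostly to the left (median -0.16).

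Pan-reactive astrocyte genes had 5 of 25 tested members at a higher level, 0 lower and a median of 0.30, which was 0.02 in the mice with low Y-linked counts. Gfap, the filament of reactive astrocytes, was at 1183 to 1661 CPM in PS/E2H and 1747 to 2482 CPM in PS/E4H mice. The groups touched without overlap (log2 fold change 0.56, SE 0.131, adjusted p = 0.22). The other members were Serpina3n, the surface protein Cd109 (0.80), the sugar transferase Ggta1 (0.69) and Vim (0.65). The count of 5 ran from 4 to 11 as single mice were left out, with the 11 found without PS/E2H replicate 3, and the median was 0.0995 without PS/E4H replicate 1. Homeostatic astrocyte genes had 2 of 20 members at a higher level and a median of 0.06. The 2 became 6 without PS/E2H replicate 3 and 1 without any other mouse except PS/E4H replicate 4.

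Lysosomal genes, 18 of whose 37 tested members stand in another list too, had 11 members at a higher level and 1 lower, with a median of 0.18. The 11 became 5 without PS/E4H replicate 1, 7 without PS/E2H replicate 1 or 4, and 17 without PS/E2H replicate 3. In the 5 mice with low Y-linked counts 2 were higher and 1 lower, with a median of 0.09. The lists overlap: 40 of 54 plaque-induced and 15 of 28 disease-associated genes occur in another list. Over the 150 distinct tested genes of 7 glial lists, 47 had a higher and 2 a lower level at an unadjusted p under 0.05, and the median was 0.24. This pooled count was not repeated with mice left out. Its lists moved in such fits. In the 5 mice with low Y-linked counts 0 disease-associated, 2 lysosomal and 12 plaque-induced genes were higher, while MHC class II genes kept 5.

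**Figure D5:**
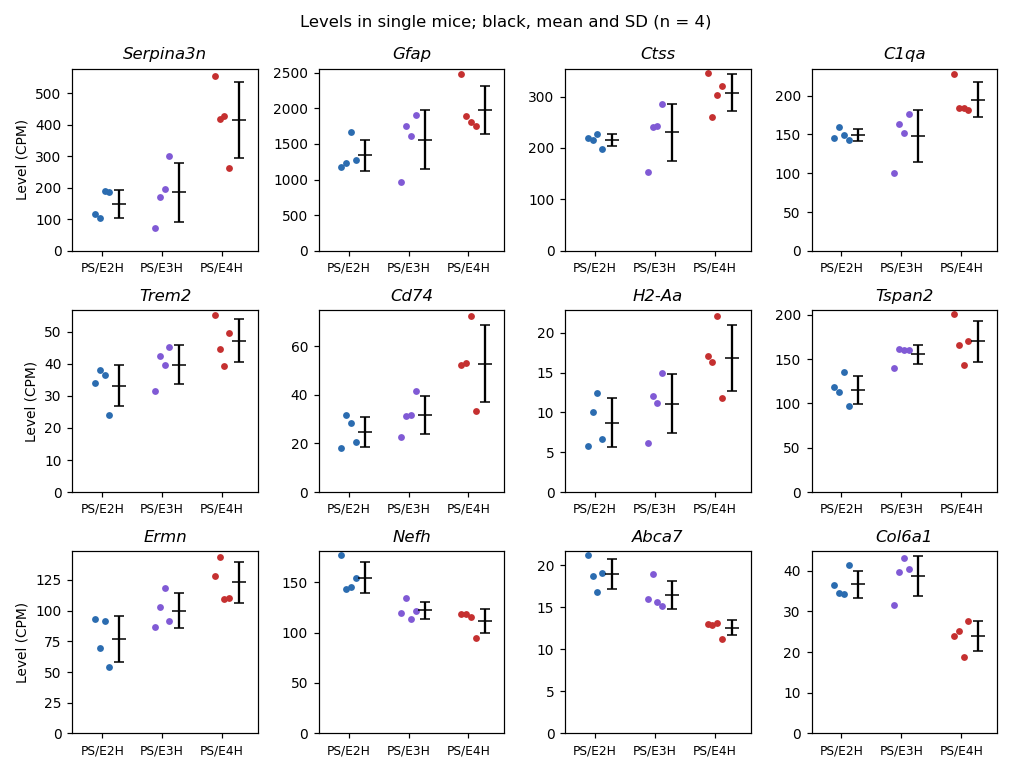
Level in CPM of 12 genes in each PS/E2H, PS/E3H and PS/E4H mouse, with the mean and SD of 4 mice in black. Serpina3n, Ctss, C1qa and Cd74 show PS/E4H mice above PS/E2H mice without overlap, Nefh, Abca7 and Col6a1 the reverse, and PS/E3H mice lie between or spread over both.

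Oligodendrocyte and myelin genes leaned to PS/E4H throughout the list. All 22 tested members had a log2 fold change above 0, 13 of them with an unadjusted p under 0.05, and the median was 0.35. Tspan2, a tetraspanin of maturing oligodendrocytes, was at 118, 113, 135 and 96.7 CPM in PS/E2H and 200, 166, 143 and 171 CPM in PS/E4H mice, with the nearest mice at 135 and 143 CPM (log2 fold change 0.55, SE 0.116, adjusted p = 0.167). Ermn, which encodes the myelin cytoskeleton protein ermin, had 0.67, Aspa, which breaks down N-acetylaspartate, 0.64, and Cldn11, the tight junction claudin of myelin, 0.38. The surface protein Mog had 0.48. Bcas1, a marker of newly forming oligodendrocytes on the precursor list, was at 194 to 253 CPM in PS/E2H and 265 to 370 CPM in PS/E4H mice (0.49), while that list of 8 had 2 members at a higher level and a median of 0.11. The summed myelin level was 7119 to 8948 CPM in PS/E2H, 7880 to 8600 CPM in PS/E3H and 8952 to 11301 CPM in PS/E4H mice. In parental mice it was 7843 to 8577 CPM in E2H and 6496 to 7629 CPM in E4H, with a median of -0.10. Without PS/E4H replicate 1 or 2 the count of 13 was 8, and in the mice with low Y-linked counts it was 6 with a median of 0.36.

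Neuronal and synaptic genes lay on the other side of 0. Of 32 tested members 0 had a higher and 11 a lower level in PS/E4H, and the median was -0.16. Nefh, the heavy neurofilament of large axons, was at 177, 143, 145 and 154 CPM in PS/E2H and 118, 119, 116 and 94.1 CPM in PS/E4H mice, without overlap (log2 fold change -0.47, SE 0.0966, adjusted p = 0.158). PS/E3H mice were at 114 to 134 CPM, nearer PS/E4H. The medium neurofilament Nefm had -0.33, the obligatory NMDA receptor subunit Grin1 -0.28 and the synaptic vesicle proteins Syp and Syn2 -0.27 and -0.22. The count of 11 became 6 or 7 without PS/E2H replicate 2 or 4 or PS/E4H replicate 1 or 2, and 17 without PS/E4H replicate 3. In the mice with low Y-linked counts it was 2. Since CPM are shares of a library, a larger share of glial transcripts and a smaller share of neuronal ones cannot be told apart from a change in either alone. Mapt, a neuronal gene, was at 436 to 504 CPM in PS/E2H and 420 to 473 CPM in PS/E4H mice. Tau, its kinases and genes of APP processing had 0 of 21 members higher and 4 lower (1 or 2 without PS/E2H replicate 2 or 4 or PS/E4H replicate 1 or 2), with a median of -0.06.

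Immediate early genes of neuronal activity had 3 of 21 members at a higher level (9 without PS/E4H replicate 3, 5 or 6 without PS/E2H replicate 2 or 4 and 0 or 1 without any other mouse) and a median of 0.30. Fos, the best known of them, was at 11.3, 21.1, 14.2 and 20.1 CPM in PS/E2H and 29.8, 34.8, 11.1 and 39.7 CPM in PS/E4H mice, so 1 PS/E4H mouse was below every PS/E2H mouse (log2 fold change 0.79, adjusted p = 0.374). Neuropeptides had 1 of 22 higher and 2 lower with a median of -0.06. The lower ones were Vgf, a granin-like precursor (-0.54), and the cholecystokinin gene Cck (-0.35). Hippocampal markers had 1 of 12 at a lower level and a median of -0.15, and striatal and dopamine genes 0 of 14 in either direction and a median of 0.06. These 3 lists moved in the 5 mice with low Y-linked counts, with 0 members lower in each. There 4 neuropeptides, 1 hippocampal marker and 4 striatal and dopamine genes were higher, with medians of 0.13, 0.10 and 0.32.

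Genes through which APOE acts gave mixed values. Of 27 tested APOE receptors and lipid transporters 5 were at a higher (4 to 9 as single mice were left out) and 2 at a lower level, with a median of 0.04. Abca7, a lipid transporter that is a risk gene of Alzheimer's disease, was at 21.2, 18.7, 16.8 and 19 CPM in PS/E2H and 13, 12.8, 13.2 and 11.3 CPM in PS/E4H mice. The groups lay apart, as for the 3.35% of all tested genes in which every PS/E4H mouse was below every PS/E2H mouse, with a log2 fold change of -0.59 (SE 0.106, adjusted p = 0.0855). Without tau it was at 16.4 ± 0.922 CPM (SD, n = 3) in E2H and 18.1 ± 0.656 CPM in E4H, and its unadjusted interaction p was 9.89e-05 (0.000365 without E2H replicate 2). Cholesterol synthesis genes had 0 of 31 at a higher and 4 at a lower level, with a median of -0.08. Among them was Scap, the sensor that escorts SREBP, with a log2 fold change of -0.24. Cyp46a1, an enzyme on the same list that turns cholesterol into a form that leaves the brain, had -0.30.

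Collagen and fibroblast genes had 0 of 18 at a higher and 3 at a lower level, with a median of -0.09. Col6a1 was at 36.6, 34.4, 34.1 and 41.5 CPM in PS/E2H and 23.8, 25.3, 18.8 and 27.7 CPM in PS/E4H mice, with no overlap (log2 fold change -0.62, SE 0.121, adjusted p = 0.142). The basement membrane chains Col4a1 and Col4a2 had -0.58 and -0.73. Endothelial and pericyte genes had 2 of 22 higher and 1 lower and a median of -0.01, and the member Slco1a4, an organic anion transporter of the blood-brain barrier, had 0.45 (adjusted p = 0.158).

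Nuclear genes of oxidative phosphorylation had 0 of 72 at a higher and 5 at a lower level in tau mice, 6 members above 0 and a median of -0.11. The 5 became 19 without PS/E2H replicate 3, 15 without PS/E4H replicate 2 and 0 or 1 without any other mouse, and in the mice with low Y-linked counts the count was 0 and the median 0.05. Cytosolic ribosomal protein genes had 1 of 77 in each direction and a median of -0.0001, with 6 lower without PS/E4H replicate 2. In parental mice both lists were lower in E4H, with 56 of 72 and 57 of 77 members at an unadjusted p under 0.05 and medians of -0.38 and -0.41. Without E2H replicate 2 there were 44 and 49, and both medians were -0.21. The summed levels in E2H mice spread over 9870 to 13283 CPM for the former list. Of the ribosomal genes 40 of 77 had an unadjusted interaction p under 0.05, and 7 without E2H replicate 2.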

How the data were processed

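RNA from the forebrains of 8 tau mice, with 4 PS/E3H and 6 parental mice beside them, was analysed, and mice were grouped by their labels. Stranded poly(A) libraries were read from both ends. The authors used cutadapt for trimming, HISAT2 for alignment and StringTie to assemble transcripts and estimate their levels. The submitters' processing notes name GRCm38.p5, DESeq2 and edgeR, and tool versions are not given in the sources used here. The authors deposited counts, whole numbers per gene without normalization, and FPKM, scaled for transcript length and library size. How counts were derived from StringTie, and how reads that match several genes were divided, is not given in the sources used here. No column of the tables was left unmapped (0 columns).

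Counts were tested with edgeR 4.0.16 in R 4.3.3 (TMM factors, filterByExpr with a minimum count of 10 and a minimum total of 15, quasi-likelihood F test, Benjamini-Hochberg adjustment), each comparison in its own mice and without covariates. A gene was called at an adjusted p under 0.05 and at least a 2-fold change. The standard error is the absolute log2 fold change divided by the square root of F. The interaction of tau and genotype was fitted over the 14 mice of 4 groups. Gene lists (37) were written from general knowledge and are described by counts and medians, not tested. Printed CPM use TMM factors over all 21 mice. Symbols and positions are those of GENCODE M21, which names 55141 of 55401 genes. Up to 3 counts per library were treated as not detected. Counting error is small for genes with many counts and larger for called genes with few counts in 1 group, such as Ccl21b and Gm13601. The p-values reflect the spread between mice of a group, estimated with information shared across genes. Alternatives were DESeq2 1.42.0, other scaling factors, no filter, limma 3.58.1 on log2(FPKM + 1), fits over more mice, robust dispersion, a replicate block, the Xist level as a covariate, sex chromosomes left out and each mouse left out. Leaving out mice with high Y-linked counts was chosen after seeing the data. The comparison and the lists were chosen with earlier results of these data known. Named genes are all called genes, those past the adjusted p with less than a 2-fold change, Apoe, Mapt, Prnp, Xist and Ddx3y, and from each list the members past the adjusted p and the 4 with the smallest p. Other list members named in the text were chosen after their values were seen. Some genes this rule selects are not reported here. The fits were tested on simulated data. Tables were joined with Python 3.11.15, NumPy 2.4.6 and pandas 2.3.3, sequences aligned with Biopython 1.88 and figures drawn with matplotlib 3.10.9.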

Additional observations from a re-analysis of the deposited data

Results flagged for a closer look

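In 150 groups of 4 mice, 1 for each of 75 named genes in PS/E2H and in PS/E4H, 9 had a mouse whose value lay far from the other 3 by Dixon's test at 95%, and chance flags about 1 group in 20. Among called genes, Lgals4 was at 3.25 CPM in PS/E2H replicate 4 and at 2.03 to 2.19 CPM in the others, and Gm13601 at 0.14 CPM in PS/E4H replicate 4 and at 0 in the others. PS/E4H replicate 4 was also apart for Abca7, at 11.3 CPM against 12.8 to 13.2 CPM, and for Nefh, at 94.1 CPM against 116 to 119 CPM. PS/E4H replicate 1 was apart for C1qa, at 228 CPM against 182 to 184 CPM, and for Apoc4, at 1.41 CPM against 0.187 to 0.362 CPM. In PS/E2H mice, replicate 4 was apart for Nfe2l2, at 21.8 CPM against 26.7 to 27.6 CPM, and replicate 2 for Nnt, at 30.9 CPM against 35.4 to 36.4 CPM, and for Cd109, at 2.99 CPM against 5.15 to 5.47 CPM.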

How the results depend on the processing

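The count of 22 called genes held within 1.5 times under RLE factors (22), library size alone (22), no low-count filter (17), the 12 tau mice in 1 fit (27), a robust fit (23), the Xist covariate (18), chromosomes X and Y left out (21) and the 5 mice with low Y-linked counts (19). DESeq2 called 86, which include all 22, with 48 higher and 38 lower. One fit over all 21 mice called 48, which include 21 of the 22, and limma on log2(FPKM + 1) called 9, of which 8 are among the 22. Leaving out 1 mouse gave 14 to 23 calls, the fewest without PS/E2H replicate 1. In parental mice 39 became 86 with DESeq2 and 26 to 40 without 1 mouse. The interaction count of 0 became 118 with DESeq2 and 0 to 3 without 1 mouse, the most without PS/E4H replicate 1. The cause of these changes was not tested.

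With the replicate number as a block, 16 genes were called in tau mice, 14 of them among the 22, and 25 in parental mice. The labels do not say that a number marks a shared litter or day. Deviations from the group means correlated at -0.068, 0.0331, -0.115 and -0.0515 in mice with the same number. They correlated at -0.104 to 0.229 in mice with different numbers. With 4 mice per group these values cannot decide whether the numbers pair the mice.

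Of 1536 log2 fold changes of 77 named genes under an alternative, 1432 kept their direction and side of the threshold, 87 fell short of it, 8 passed it and 9 changed sign. Apoe changed sign in several, near 0 throughout (0.0118 in limma, 0.0177 with the Xist covariate, 0.174 without mice with high Y-linked counts, and -0.0988 to 0.0687 without 1 mouse). The log2 fold change of Xist also changed sign, at 0.0164 without mice with high Y-linked counts. Of 444 list medians, 420 moved by less than the spread between mice and 24 by more. Genes under about 1 CPM rest on few counts, which limits their folds.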

Other observations

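In PS/E4H against PS/E2H mice 5.94% of all tested genes had an unadjusted p under 0.05 with a higher level and 6.39% with a lower one. Genes of other cell types and pathways are given here by the same counts, and none passed the adjusted test. Redox genes had 5 of 24 members at a higher (9 without PS/E2H replicate 3) and 1 at a lower level, with a median log2 fold change of 0.06. The higher ones include Nfe2l2, the master regulator of antioxidant genes, at 25.8 ± 2.71 CPM (SD, n = 4) in PS/E2H and 34.2 ± 3.03 CPM in PS/E4H mice (log2 fold change 0.41, adjusted p = 0.27), the peroxidase Prdx6 (0.35) and Idh1, a source of NADPH (0.35). The lower one is Nnt, the mitochondrial transhydrogenase. The annotation holds 2 overlapping genes of that name. ENSMUSG00000025453 was at 35.6, 30.9, 36.4 and 35.4 CPM in PS/E2H and at 19.9, 17.5, 5.38 and 21.6 CPM in PS/E4H mice, so that no PS/E4H mouse reached the PS/E2H range, yet the fit did not call it (log2 fold change -1.10, adjusted p = 0.296). ENSMUSG00000116207 was at 0 in all 4 PS/E2H mice and at 5.72, 1.58, 15 and 0 CPM in PS/E4H mice, and did not pass the filter. PS/E3H mice were at 8.03 to 18 CPM for the former and 0 to 16 CPM for the latter. Of their windows, 47.0% of the former and 100% of the latter are shared, most often with the other Nnt gene. PS/E4H replicate 3 had the lowest level of the former, at 5.38 CPM, and the highest of the latter, at 15 CPM. How far the log2 fold change of -1.10 and its spread between mice reflect the division of reads between the 2 genes was not tested.

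Immunoglobulin and B cell genes had 2 of 8 members at a higher level, Igkc and Jchain, the light chain constant region and the joining chain of antibodies. Igkc was at 0.331, 0.718, 2.31 and 0.489 CPM in PS/E2H and at 18.7, 11.3, 0.634 and 2.78 CPM in PS/E4H mice, so 1 PS/E4H mouse lay within the PS/E2H range (log2 fold change 3.12, adjusted p = 0.296). T cell genes had 0 of 17 in either direction, and blood cell genes 1 of 8 higher. Choroid plexus genes had 2 of 16 higher and a median of 0.34. The 2 became 7 without PS/E4H replicate 1, 4 without PS/E2H replicate 3 and 1 without PS/E2H replicate 4 or PS/E4H replicate 2 or 4, the median was 0.17 without PS/E4H replicate 2, and in the 5 mice with low Y-linked counts 7 were higher, where 2.34% of all genes were. The list had summed levels of 692 to 943 CPM in PS/E2H and 484 to 1322 CPM in PS/E4H mice. Other chemokines and their receptors had 3 of 32 higher (9 without PS/E2H replicate 3 and 1 without PS/E4H replicate 1) and 5 lower (3 without PS/E2H replicate 2 and 2 without PS/E4H replicate 2). Mitochondrial genes of oxidative phosphorylation had 3 of 13 higher. The 3 became 9 without PS/E2H replicate 1, 7 without PS/E4H replicate 1, 0 or 1 without any other mouse except PS/E2H replicate 3, and 8 with the Xist level as a covariate. Clock genes had 2 of 16 higher (1 to 4 as single mice were left out, with 4 without PS/E2H replicate 2 or PS/E4H replicate 3). Glucocorticoid and fasting genes had 1 of 18 lower (3 without PS/E2H replicate 3) and a median of -0.20. Without PS/E2H replicate 4 they had 3 higher and 0 lower, with a median of 0.17. Heat shock and ER stress genes had 0 of 20, pituitary hormone genes 0 of 3 and sex-linked genes 0 of 6 in either direction.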
